A study of Mus musculus with 16 samples.

Results

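In single-cell RNA sequencing of mouse kidney, 7596 of 32674 barcodes took more than 50% of their unique molecular identifiers (UMIs, each standing for 1 captured RNA molecule) from genes of the mitochondrial genome. These mitochondria-rich barcodes were chosen by that share alone, among barcodes with at least 500 UMIs, in 4 deposited count matrices. The values that chose them are therefore given as a description, and the question asked of the data is which nephron segments their remaining, non-mitochondrial UMIs came from. The 4 libraries were 2 from wild type and 2 from Gulo-/- kidneys, all of the strain labelled C57BL/6. The Gulo gene product, L-gulonolactone oxidase, carries out the final reaction of ascorbate (vitamin C) production, so mice that lack it must take the vitamin up from food. Age, diet and the number of animals are not given in the labels. Kidneys were cut into pieces and mixed before the material was shared out between assays, and nothing in the labels says that replicates were separate animals. The p-values below therefore speak only of these libraries, whose differences may be technical. Those of the gene tests use a spread estimated with information shared across genes. They are thus no measure of how far the values of a single gene vary between libraries.

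The mitochondrial genome encodes 13 proteins, all subunits of the respiratory chain and the ATP synthase, and their transcripts are made and kept inside the organelle. Nuclear genes encode the remaining subunits, and their transcripts are translated in the cytosol. Kidney tubules differ in how many mitochondria they hold. The proximal tubule, which reabsorbs most of the filtrate, the thick ascending limb, which reabsorbs salt without water, and the distal convoluted tubule, which fine-tunes salt, are all densely packed with mitochondria to drive sodium pumps, while endothelial and immune cells hold fewer. In single-cell libraries a high mitochondrial share is commonly used as a sign of a damaged cell that has lost cytosolic RNA, and such barcodes are usually removed before analysis.

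Sequencing depth was uneven: the wild type libraries held 10208946 (replicate 1) and 57732505 UMIs (replicate 2), and the Gulo-/- libraries 10073836 (replicate 1) and 88925323 (replicate 2). Lists of 4 values below keep this order. From wild type replicate 2, 986 barcodes that also occurred in replicate 1 had been dropped, where 33.5 would coincide if barcodes were drawn at random from the kit's list. The other five pairs of libraries had 9 to 282 barcodes in common, where random draws would give 8.28 to 269.9. Of the 986, 127 were above 50% in both libraries, against 134 in replicate 1 and 162 in replicate 2. The female transcript Xist and 4 Y-linked genes marked wild type replicate 1 and Gulo-/- replicate 2 as female and the other two libraries as male, so each genotype had 1 library of each sex. Gulo itself had 1 UMI in the mitochondria-rich barcodes of wild type replicate 2 and 0 UMIs in those of the other three libraries, which is too few to check the genotype labels.

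Mitochondria-rich barcodes made up 23.1% of wild type replicate 1 (482 of 2090 barcodes; 95% Wilson interval 21.3 to 24.9%). They made up 29.7% of wild type replicate 2 (3225 of 10843; 28.9 to 30.6%), 35.4% of Gulo-/- replicate 1 (1033 of 2919; 33.7 to 37.1%) and 16.98% of Gulo-/- replicate 2 (2856 of 16822; 16.4 to 17.6%). Intervals cover counting error only. The highest and the lowest share were both in Gulo-/- libraries, so the genotypes overlapped. The mean was 26.4% ± 4.72 (SD, n = 2) in wild type and 26.2% ± 13.0 (SD, n = 2) in Gulo-/-, with p = 1 in a two-sided exact permutation test, which with 2 libraries against 2 cannot go below 0.333. The sign of the difference of -0.22 percentage points turned to 3.12 without wild type replicate 2 and to 8.99 without Gulo-/- replicate 2.

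The mitochondrial share was not spread evenly above the limit. The band from 70 to 80% was the emptiest of those above 50% in every library, with 1.29%, 4.17%, 3.15% and 2.25% of all barcodes in wild type replicates 1 and 2 and Gulo-/- replicates 1 and 2. Barcodes above 90% made up 16.2%, 8.38%, 19.3% and 5.12% of the libraries in that order, so the 2 libraries with the fewest barcodes held the most of them. Among the mitochondria-rich barcodes alone, 70.3%, 28.2%, 54.4% and 30.2% lay above 90%.

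Barcodes with a higher mitochondrial share had far fewer other UMIs, while their mitochondrial UMIs changed much less. From the 50 to 60% band to the band above 90%, the median of non-mitochondrial UMIs went from 1063 to 70 in wild type replicate 1 and from 1267 to 184 in wild type replicate 2. In the Gulo-/- libraries it went from 1166 to 82 and from 1487 to 183. Over the same bands the median of mitochondrial UMIs went up, from 1416 to 2356, from 1525 to 2203, from 1316 to 1712 and from 1834 to 2473. Because the total of a barcode is the sum of both, part of this opposite course is set by the way bands are defined. Barcodes of the 0 to 10% band held medians of 6264, 11733, 3155 and 4179 non-mitochondrial UMIs and 403.5, 1081, 204 and 263 mitochondrial ones.

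**Figure D1:**
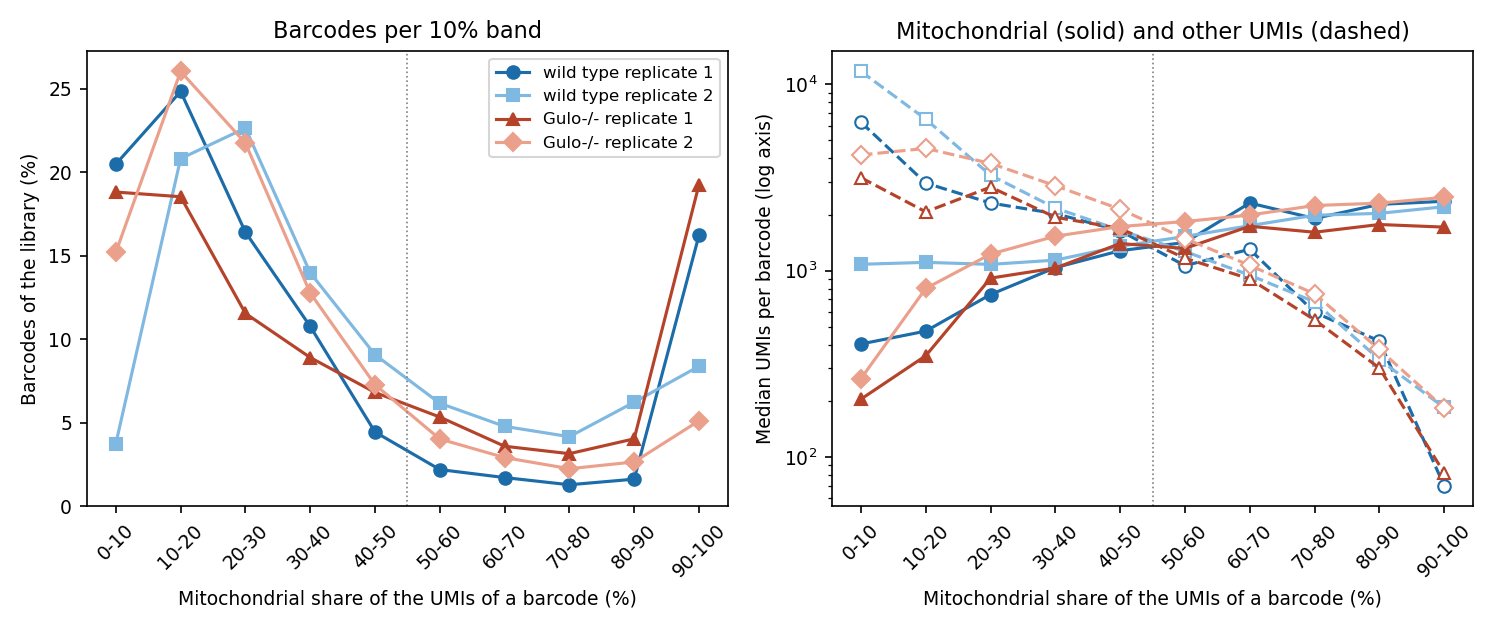
Left, the percent of each library's barcodes in each band of mitochondrial share (10 percentage points wide). Right, on a log axis, the median mitochondrial UMIs (solid) and other UMIs (dashed) per barcode in each band, with 1 line per library; above 90% the median of other UMIs lies between 70 and 184 while that of mitochondrial UMIs lies between 1712 and 2473.

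The median total of mitochondria-rich barcodes was 2477, 2500, 2024 and 2878 UMIs per barcode in the 4 libraries, against 3741, 4926, 3019 and 4786 in barcodes at or below 50%. These totals include the mitochondrial UMIs that chose the members, and no barcode in the files had fewer than 1683, 1881, 1122 and 1885 UMIs. The medians of non-mitochondrial UMIs were 103, 562, 167 and 655.5 against 3060, 3640, 2298 and 3665. Fewer genes were seen as a result, 86.5, 388, 135 and 445 against more than 1000 in every library. When each barcode was thinned to 250 non-mitochondrial UMIs, the median number of genes was 194, 201, 195 and 205 in mitochondria-rich and 196, 197, 199 and 204 in other barcodes, so at equal depth the variety of nuclear-encoded transcripts was alike. That comparison left out 323, 902, 583 and 749 shallower mitochondria-rich barcodes. Just inside the limit, between 50 and 52%, 9, 151, 36 and 160 barcodes had medians of 996, 1462, 1390 and 1586 non-mitochondrial UMIs. Just outside it, between 48 and 50%, 13, 167, 40 and 210 barcodes had 1784, 1462, 1347 and 1880.

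Among the mitochondrial transcripts, the mixture was nearly the same in mitochondria-rich and other barcodes, which is given as a description with no test because these UMIs chose the members. mt-Atp6, an ATP synthase subunit, held 21.0% ± 0.88 (SD, n = 4 libraries) of mitochondrial UMIs in mitochondria-rich and 20.6% ± 0.68 in other barcodes. mt-Co3, a subunit of cytochrome c oxidase, held 20.6% ± 0.96 and 21.1% ± 0.57. These 2 genes were the most abundant on average.

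The 3 transcripts used as markers of these barcodes behaved differently from each other across libraries. mt-Co1, the catalytic subunit of cytochrome c oxidase, took 10.5% and 7.70% of mitochondrial UMIs in the mitochondria-rich barcodes of wild type replicates 1 and 2 and 16.5% and 16.7% in those of Gulo-/- replicates 1 and 2. The other barcodes of the same libraries showed the same split, at 9.96%, 7.41%, 17.7% and 17.8%, so the genotypes did not overlap in either kind of barcode. mt-Cytb, the cytochrome b of complex III, held 13.3%, 13.5%, 11.7% and 12.2% in mitochondria-rich barcodes and a smaller share in the other barcodes of all 4 libraries (13.0%, 13.3%, 10.9% and 11.6%). mt-Nd1, a core subunit of complex I, held 12.3%, 12.7%, 11.7% and 10.6% against 13.0%, 13.0%, 10.9% and 9.95%, lower in both wild type libraries and higher in both Gulo-/- ones. On the mitochondrial chromosome (RefSeq assembly GRCm38.p6, the same as mm10) the genes lie at positions 2751 to 3707 for mt-Nd1, 5328 to 6872 for mt-Co1 and 14145 to 15288 for mt-Cytb, and each is protein-coding and has no introns. Like mt-Co3, the transcripts mt-Co2, mt-Nd4l, mt-Nd6 and mt-Atp8 (0.0779% ± 0.0544 against 0.165% ± 0.116) held a smaller share in mitochondria-rich barcodes in all 4 libraries. In the authors' deposited table of cluster markers, 0 of 1919 entries were mitochondrial genes.

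To place the barcodes along the nephron, barcodes at or below 50% were clustered on nuclear-encoded genes and the clusters were named from marker genes, with names ending in "-like" because they rest on markers. Every barcode with at least 200 non-mitochondrial UMIs was then given the cluster whose profile best matched those UMIs. Tested on other barcodes reduced to 200 UMIs, this gave 96.7% of them the class they had from their own cluster, with 99.8% for the proximal tubule-like, 99.0% for the thick ascending limb-like and 81.9% for the distal convoluted and connecting tubule-like class. The rule reached 170, 2653, 487 and 2339 mitochondria-rich barcodes in the 4 libraries and left out 64.7%, 17.7%, 52.9% and 18.1% of them, mostly barcodes above 90%. The class make-up below is thus that of the deeper mitochondria-rich barcodes.

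Most classified mitochondria-rich barcodes were tubule-like, and 2 segments held a larger share of them than of other barcodes in all 4 libraries. Thick ascending limb-like barcodes formed 22.9%, 9.24%, 18.5% and 31.7% of mitochondria-rich barcodes against 3.17%, 3.03%, 6.95% and 28.5% of other barcodes in wild type replicates 1 and 2 and Gulo-/- replicates 1 and 2. The ratio ran from 7.23 in wild type replicate 1 to 1.11 in Gulo-/- replicate 2, and the mean difference was 10.2 percentage points ± 7.28 (SD, n = 4). Distal convoluted and connecting tubule-like barcodes formed 8.82%, 2.68%, 9.65% and 18.9% against 0.373%, 0.775%, 3.39% and 10%, a mean difference of 6.37 percentage points ± 3.19 (SD, n = 4). This class was 1 cluster, led by Slc12a3, Pvalb and Abca13. A cluster led by S100g, Calb1 and Klk1, of the same marker list, stayed unnamed, so the class may hold little of the connecting tubule. The thick ascending limb is the last part of the loop of Henle and leads into the distal convoluted tubule, and both carry apical sodium chloride transporters, Slc12a1 and Slc12a3. With clusters at resolution 2 the thick ascending limb was higher in 3 of 4 libraries, since Gulo-/- replicate 2 then held 24.9% against 26.4%.

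Proximal tubule-like barcodes were the largest class of mitochondria-rich barcodes in 3 libraries, at 58.8%, 78.6% and 58.3%, and held 21.0% in Gulo-/- replicate 2. Against 82.0%, 84.0%, 49.1% and 22.5% of other barcodes, this was lower in 3 libraries and higher in Gulo-/- replicate 1, and the mean difference of -5.22 percentage points ± 13.5 (SD, n = 4) was smaller than its spread. Without wild type replicate 1 its sign turned, to 0.75. When barcodes were assigned by marker list instead of by cluster, the proximal tubule was lower in all 4 libraries. It then held 46.5%, 58.7%, 29.2% and 4.70% of mitochondria-rich against 73.1%, 73.2%, 33.4% and 12.3% of other barcodes. Endothelial-like barcodes formed only 1.77%, 0.377%, 3.49% and 1.496% of mitochondria-rich barcodes against 5.66%, 1.92%, 17.6% and 7.35% of other barcodes. Macrophage and monocyte-like barcodes formed 0.588%, 0.792%, 0.205% and 0.128% against 2.36%, 2.25%, 2.97% and 1.53%. Intercalated-like, urothelium-like, stromal-like, T and NK-like, neutrophil-like and erythroid-like barcodes were also rarer among mitochondria-rich barcodes in all 4 libraries. Some of these differences rest on few barcodes: wild type replicate 1 held 0 mitochondria-rich ones of each, against 10, 8, 6, 17, 1 and 15 other ones. In wild type replicate 2 the intercalated-like share was 1.24% against 1.33%. The urothelium-like class was 1 cluster, led by Fst, Sprr1a and Psca. At resolution 2, a cluster of 298 barcodes led by Fst, Bst1 and Lypd2 was named thin limb-like. Another of 37 was named urothelium-like, so the class may be mostly thin limb. Clusters that stayed unnamed held 5.29%, 5.84%, 7.39% and 20.3% against 2.49%, 1.18%, 6.10% and 8.13%. An unnamed cluster led by Thrsp, Kdr and Rgcc scored highest for the endothelial markers, and was named endothelial-like at resolution 2. It held 0, 73, 7 and 259 mitochondria-rich barcodes, against 3, 10, 17 and 35 in the endothelial-like class. Counted as endothelial-like, it would make that class more common among mitochondria-rich than other barcodes in wild type replicate 2 and Gulo-/- replicate 2.

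**Figure D2:**
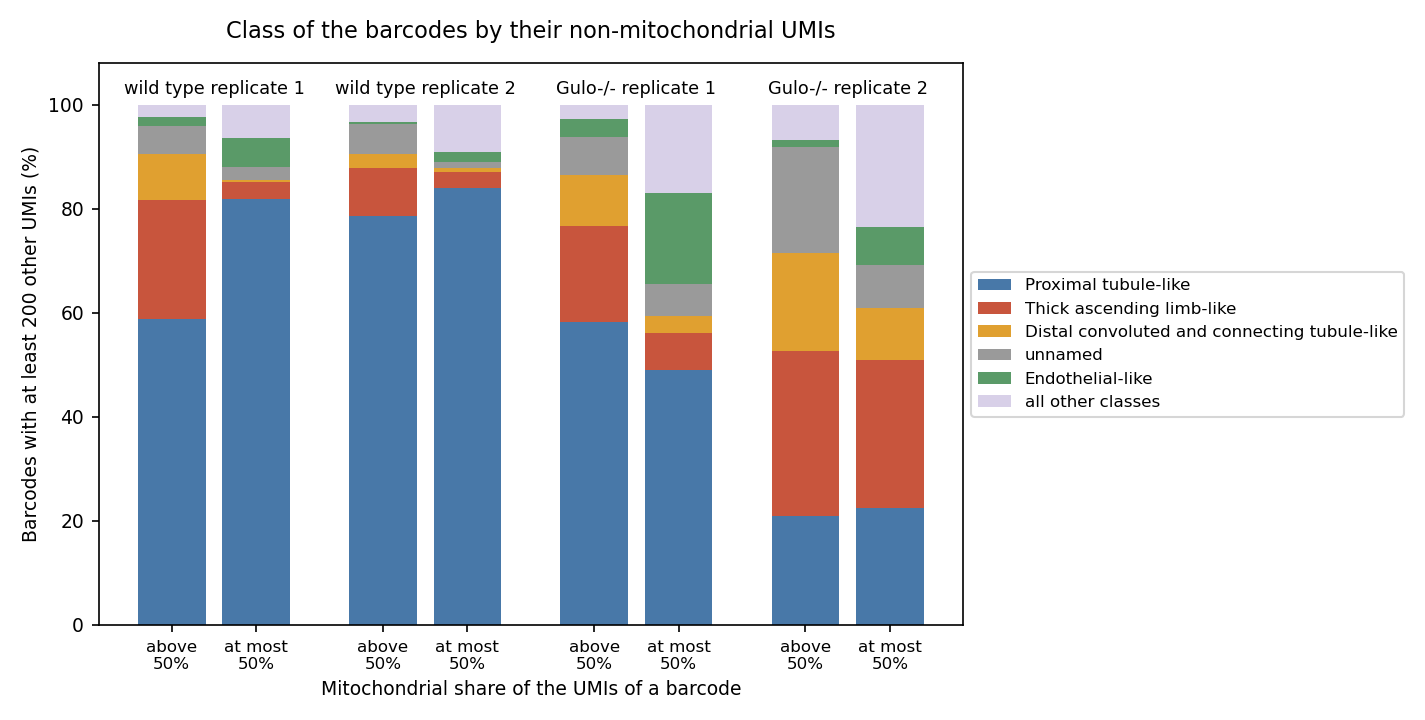
Stacked bars give the class make-up (percent of barcodes with at least 200 non-mitochondrial UMIs) above 50% and at most 50% mitochondrial UMIs in each library. The thick ascending limb-like band is wider above 50% in all 4 libraries (for example 22.9% against 3.17% in wild type replicate 1). The endothelial-like band is narrower in all 4, with the unnamed cluster led by Thrsp, Kdr and Rgcc not counted in it.

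Read the other way, the share that was mitochondria-rich was compared between named classes with at least 20 barcodes in every library. Other named classes were left out, among them intercalated-like and collecting duct principal-like, with 10 and 5 barcodes in wild type replicate 1. Their shares were 0%, 24.6%, 13.5% and 7.04% for intercalated-like and 40%, 9.09%, 0.990% and 1.16% for principal-like barcodes. The distal convoluted and connecting tubule, the thick ascending limb and the proximal tubule stood above endothelial and macrophage-like barcodes in every library. Also left out is the unnamed cluster led by Thrsp, Kdr and Rgcc (0 of 4, 73 of 93, 7 of 43 and 259 of 499 mitochondria-rich). Counted as endothelial-like, it would put that class above the proximal tubule in wild type replicate 2 and Gulo-/- replicate 2. In the latter library that class would also stand above the thick ascending limb. Of distal convoluted and connecting tubule-like barcodes, 71.4%, 54.6%, 42.3% and 24.0% were mitochondria-rich (15 of 21, 71 of 130, 47 of 111 and 441 of 1838). These counts are those of the Slc12a3-led cluster alone. In the unnamed cluster led by S100g, Calb1 and Klk1 the shares were 20%, 53.95%, 26.85% and 19.42%. Of thick ascending limb-like barcodes, 43.3%, 51.5%, 40.7% and 15.7% were (39 of 90, 245 of 476, 90 of 221 and 741 of 4727). Proximal tubule-like barcodes followed with 7.05%, 24.6%, 23.5% and 13.5%. Endothelial-like barcodes had 3.19%, 6.41%, 4.87% and 3.30%, and macrophage and monocyte-like barcodes 2.56%, 10.9%, 1.75% and 1.39%.

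The order of the class means was 48.1% ± 20 for the distal convoluted and connecting tubule, 37.8% ± 15.4 for the thick ascending limb, 17.2% ± 8.37 for the proximal tubule, 4.44% ± 1.52 for endothelial and 4.16% ± 4.54 (all SD, n = 4) for macrophage and monocyte-like barcodes. The distal class, the thick ascending limb and the proximal tubule kept this order within each library, and the last 2 did not differ beyond their spread. With the limit at 80% the order did not hold: the proximal tubule stood highest in wild type replicate 2 (10.7%, against 9.23% for the distal class and 3.78% for the thick ascending limb) and in Gulo-/- replicate 1 (8.43%, 8.11% and 5.43%). Between genotypes, both distal classes had lower shares in the Gulo-/- libraries with no overlap, by 29.9 percentage points for the distal convoluted and connecting tubule and 19.2 for the thick ascending limb in the magnitude of the mean difference. Each had p = 0.333 in the two-sided exact permutation test, the smallest that 2 against 2 libraries can give. Leaving out 1 library moved the difference between -39.0 and -20.7 percentage points for the distal class and between -31.7 (without Gulo-/- replicate 1) and -6.68 (without Gulo-/- replicate 2) for the thick ascending limb, and at a limit of 80% the genotypes overlapped for the latter (p = 1, exact permutation test). Proximal tubule-like barcodes differed by 2.69 percentage points with overlap (p = 1, exact permutation test), and that sign turned when wild type replicate 1 (-6.07) or Gulo-/- replicate 1 (-2.29) was left out. Across the 2 Gulo-/- libraries the shares themselves were far apart, and the lowest value of both distal classes came from Gulo-/- replicate 2, which also has the most barcodes.

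**Figure D3:**
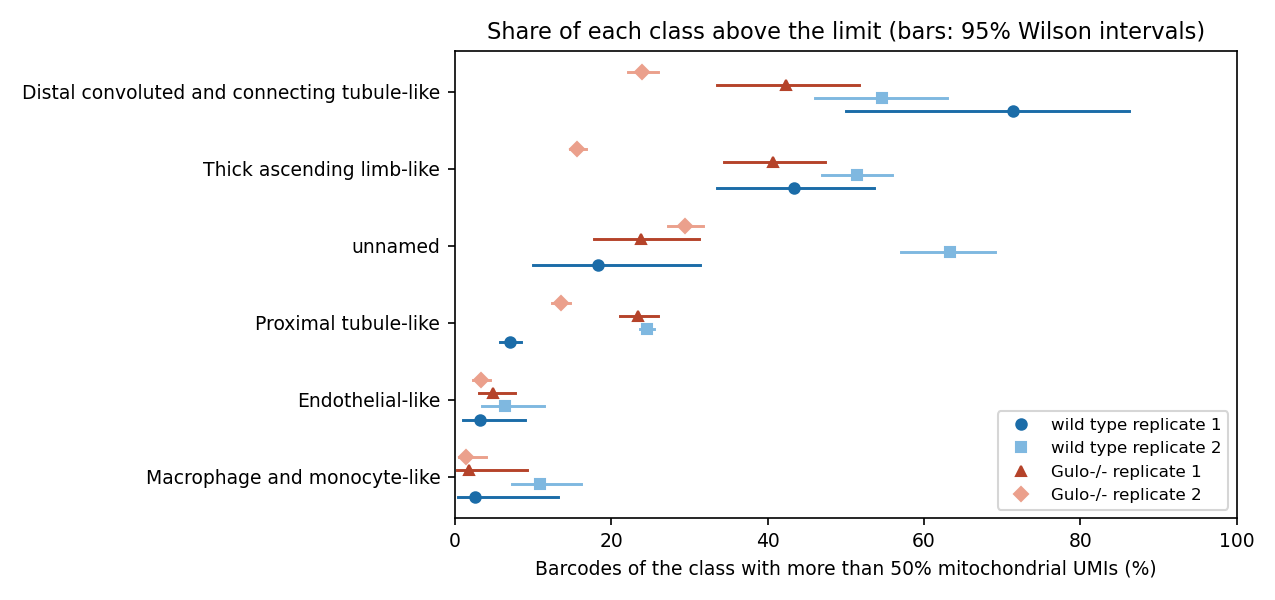
Percent of barcodes that had more than 50% mitochondrial UMIs in each class with at least 20 barcodes in every library. There is 1 point per library, with bars for the 95% Wilson interval (counting error only). Distal convoluted and connecting tubule-like barcodes lie between 24.0% and 71.4%, and endothelial-like barcodes between 3.19% and 6.41%.

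Within the proximal tubule the share differed between clusters. A cluster led by Slc5a2, the sodium glucose transporter of the early proximal tubule, with Spp2 and Dpep1, was mitochondria-rich in 19.1%, 54.7% and 67.4% of its barcodes in wild type replicates 1 and 2 and Gulo-/- replicate 1, the libraries with at least 20 of its barcodes (49 of 256, 480 of 877 and 33 of 49). A cluster led by Cyp4a14, Cyp2d26 and Slc13a1 reached 16.7%, 70%, 34.6% and 17.8% in the 4 libraries (15 of 90, 21 of 30, 126 of 364 and 122 of 684). When clusters were formed, only 2 of its barcodes came from wild type replicate 2. Likewise, only 5 barcodes of the Slc5a2-led cluster came from Gulo-/- replicate 1. The highest shares of both clusters are thus those of libraries that hardly contributed to their profiles. At the other end, clusters led by Fabp1 (0.475% in wild type replicate 1) and by Npl and Hmox1 (4.18% and 2.97% in the Gulo-/- libraries) held few. In the thick ascending limb, the cluster led by Nccrp1, Ppp1r1b and Wfdc15b had 45.1%, 61.7%, 40.6% and 30.7%, and the one led by Egf, Slc12a1 and Umod had 36.1%, 29.6% and 6.98% in the 3 libraries with enough barcodes. The cluster with the most proximal tubule-like barcodes differed between the 2 kinds in 3 libraries, and was the same in Gulo-/- replicate 2, where it held 64.0% of mitochondria-rich and 50.6% of other ones. In wild type replicate 1, 49.0% of the mitochondria-rich ones fell in the Slc5a2-led cluster, where 47.7% of the other ones fell in the cluster led by Fabp1.

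Barcodes higher on the mitochondrial scale were less often placed in a segment. When barcodes were thinned to 50 non-mitochondrial UMIs and the summed non-mitochondrial UMIs of all barcodes at or below 50% of the same library were offered as 1 more candidate profile, 34.5%, 57.7%, 47.5% and 52.7% of barcodes above 90% matched that library sum better than any cluster. Among barcodes at or below 50% the figures were 1.56%, 4.19%, 2.65% and 3.38%, and in the 50 to 60% band 2.17%, 6.88%, 1.28% and 3.84%. The rise set in above 70% in wild type replicate 2 (15.5% at 70 to 80%) and above 80% in Gulo-/- replicate 2 (29.5% at 80 to 90%). With 50 UMIs, 92.7% of other barcodes still found their class. With 200 UMIs kept, 81.1% of 344 and 74.7% of 348 barcodes above 90% matched the library sum in wild type replicate 2 and Gulo-/- replicate 2. In the shallow libraries the same share was 0 of 27 barcodes, which allows up to 11.1%, and 14.6% of 41.

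**Figure D4:**
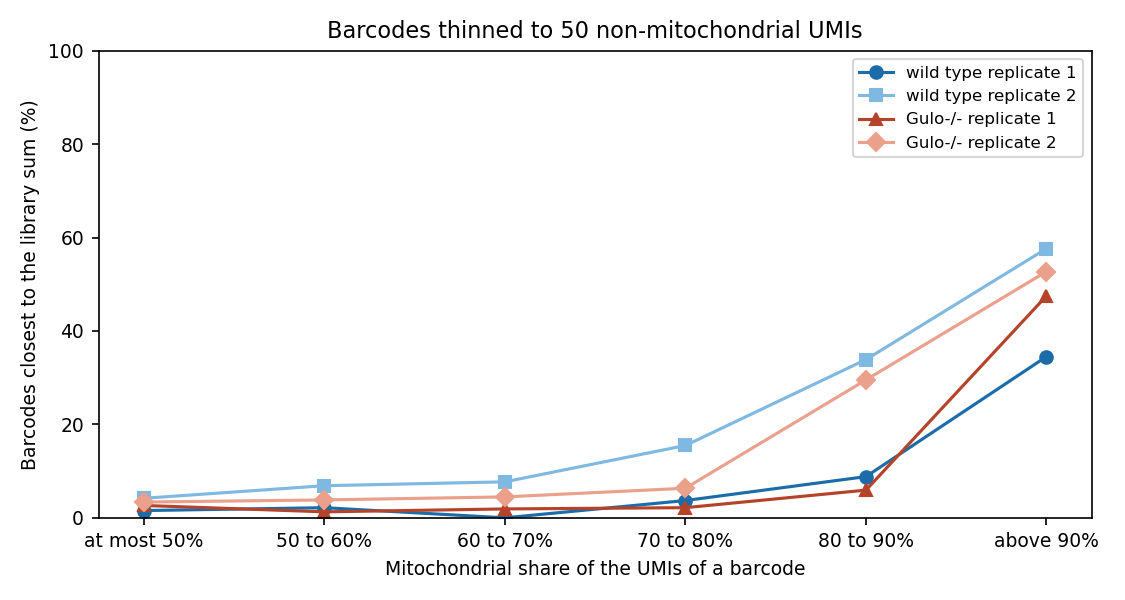
Percent of barcodes, each thinned to 50 non-mitochondrial UMIs, whose UMIs matched the library's summed profile better than any cluster, by band of mitochondrial share, with 1 line per library. All 4 lines lie between 1.56% and 4.19% at or below 50% and between 34.5% and 57.7% above 90%.

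The over-representation of the distal segments was read again with these values in view. With only barcodes of 50 to 80%, an alternative chosen after seeing the data, thick ascending limb-like barcodes formed 21.1%, 13.8%, 22.1% and 35.9%, and distal convoluted and connecting tubule-like ones 8.26%, 3.60%, 10.8% and 20.1%, higher than in other barcodes in all 4 libraries. Above 80%, also chosen after seeing the data, the thick ascending limb was higher in 2 of 4 libraries (26.2%, 1.78%, 8.96% and 23.4%) and the distal class in 4 of 4. With the library sum as a candidate, 29.9% of the classified mitochondria-rich barcodes of wild type replicate 2 and 21.3% of those of Gulo-/- replicate 2 went to it, and the thick ascending limb was then higher in 3 of 4 libraries. The proximal tubule-like share of wild type replicate 2 went from 78.6% to 51.0% under that setting.

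The nuclear-encoded transcripts themselves were compared by summing UMIs per library and kind of barcode, with mitochondrial genes removed, so that levels are counts per 1000000 non-mitochondrial UMIs (CPM). Transcripts of the thick ascending limb rose in mitochondria-rich barcodes, and transcripts of vessel, immune and stromal cells fell. Umod, the uromodulin secreted by the thick ascending limb, stood at 3415, 3644, 5700 and 8847 CPM in mitochondria-rich and 212.9, 541.9, 1334 and 5849 CPM in other barcodes of wild type replicates 1 and 2 and Gulo-/- replicates 1 and 2. It was higher in all 4 libraries, by 2.24 on the log2 scale (SE 0.317; adjusted p = 1.96e-05, edgeR's quasi-likelihood test). Slc12a1, the sodium potassium chloride cotransporter of that segment, stood at 1060, 709.6, 1664 and 2013 CPM against 70.11, 120.0, 287.8 and 1635 CPM (log2 2.21, SE 0.502; edgeR adjusted p = 0.0317). Egf, the precursor of epidermal growth factor, stood at 1442, 1664, 729.2 and 1780 CPM against 114.0, 245.2, 190.1 and 975.4 CPM (log2 2.18, SE 0.208; edgeR adjusted p = 1.02e-19). The rise of each of these genes was smallest in Gulo-/- replicate 2, and the SE of Egf does not reflect that spread between libraries.

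Of 12369 genes tested by edgeR, 785 were higher (6.35%) and 773 lower (6.25%) in mitochondria-rich barcodes, 12.6% called in all. The count fell to 247 higher and 385 lower without wild type replicate 2, and to 467 and 286 without Gulo-/- replicate 1. Besides Umod, Slc12a1 and Egf, the genes with the largest rise were Gpx6, Cwh43, Abca13, Kng2 (a kininogen), Wfdc15b, Lars2 (the mitochondrial leucyl-tRNA synthetase), Ppp1r1a and Ckb (brain-type creatine kinase), with log2 changes of 1.80 to 2.15. The largest falls were those of Sprr1a (-2.65), Hbb-bt (-2.54, a globin), Cldn5 (-2.42, an endothelial tight junction protein), Ren1 (-2.23, renin), Vim (-2.08, vimentin), Sox17, Lyz2 (-1.92, the lysozyme of macrophages), Pappa, S100a6 (-1.78), Ccnd2 and Fam129a. Lyz2 stood at 34.34, 43.62, 19.08 and 77.05 CPM against 91.24, 136.3, 162.4 and 241.6 CPM, lower in each of the 4 libraries.

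By marker lists, 8 of 10 thick ascending limb genes rose (median log2 change 1.55 over the list, against -0.04 over all genes tested), among them Kcnj1, the potassium channel of that segment, at 1.46 and Cldn16, its magnesium-permeable claudin, at 1.48. Of the 12 genes of the distal convoluted and connecting tubule list, 8 rose (median 1.54), among them Trpm6, a magnesium channel, at 2.16. Slc12a3, the sodium chloride cotransporter that defines the segment, stood at 632.9, 408.3, 752.6 and 1533 CPM against 17.01, 52.84, 185.5 and 484.2 CPM, yet did not pass (log2 2.72, SE 0.700; edgeR adjusted p = 0.113). In the proximal tubule list 8 of 20 rose and 2 fell, with 4 and 0 without wild type replicate 2. In the opposite direction went 8 of 10 collecting duct principal cell genes (5 without Gulo-/- replicate 2), 9 of 11 endothelial genes (4 without Gulo-/- replicate 1), 7 of 10 macrophage and monocyte genes (4 without either Gulo-/- library) and 6 of 9 stromal genes (1 without Gulo-/- replicate 1 and 2 without Gulo-/- replicate 2).

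Among functional lists, immediate early genes, which are switched on within minutes of a stimulus, fell together. Of 24 measured, 20 fell (median log2 change -1.09), and 17 to 20 did when any 1 library was left out. Fos stood at 49.06, 29.08, 108.1 and 258.1 CPM in mitochondria-rich and 126.4, 52.81, 321.1 and 690.9 CPM in other barcodes (log2 -1.38, SE 0.206; edgeR adjusted p = 4.72e-09), and Jun at 103.0, 36.75, 154.8 and 200.6 CPM against 193.9, 66.31, 414.8 and 614.0 CPM. Of 26 tubular injury genes 11 fell, Vim, S100a6, Lcn2 and Vcam1 among them, and Sox9 and Spp1 rose. Among the nuclear-encoded subunits of the respiratory chain and ATP synthase, 1 of 77 passed, Sdhd, which fell by 0.61 on the log2 scale (edgeR adjusted p = 0.0198), and the list's median was 0.06. DESeq2 called 0 of these lower and 1 higher. Of 25 genes for expression and upkeep of the mitochondrial genome, Lrpprc, which stabilizes mitochondrial messenger RNA, rose by 0.80. Of 25 cell death and p53 genes 2 fell, Cdkn1a and Gsdmd. Among hydroxylases and ascorbate transport genes 1 of 17 passed, P4hb, at 0.91. Of 81 cytosolic ribosomal protein genes 16 fell, a count that was 71 without Gulo-/- replicate 2 and 1 to 3 without any other library.

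Restricted to barcodes of 50 to 80%, 692 of 12402 genes were higher (5.58%) and 724 lower (5.84%), 11.4% called by edgeR in all. There 8 of 10 thick ascending limb and 9 of 12 distal convoluted and connecting tubule markers rose, and 19 of 23 immediate early and 9 of 11 endothelial genes fell.

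Over all barcodes, a different mixture of classes and different levels within a class cannot be told apart, so the same test was run inside the proximal tubule-like class. There, 7 of 20 proximal tubule markers rose, Slc5a2, Slc34a1 and Lrp2 among them, and 4 fell, and ribosomal, respiratory chain and fatty acid oxidation genes that passed the test mostly fell. Slc5a2 stood at 1382, 498.1, 562.7 and 519.3 CPM in mitochondria-rich and 217.3, 137.5, 135.8 and 226.2 CPM in other barcodes (log2 1.65, SE 0.179; edgeR adjusted p = 2.22e-16). All mitochondria-rich values of Slc5a2 lay above all of the others. Since the Slc5a2-led cluster held 49.0% of these barcodes in wild type replicate 1, and the leading proximal tubule cluster differed between the 2 kinds of barcode in all libraries but Gulo-/- replicate 2, a different mixture of proximal tubule subtypes and different levels within a subtype cannot be told apart. Slc34a1, the main phosphate transporter, stood at 5804, 4559, 5606 and 3052 CPM against 2089, 2041, 2216 and 2222 CPM (log2 0.82; edgeR adjusted p = 0.000961), and Lrp2, the endocytic receptor megalin, at 1142, 1055, 700.2 and 844.9 CPM against 375.9, 513.1, 417.2 and 419.8 CPM. In contrast Akr1c21, an aldo-keto reductase, stood at 1597, 2240, 871.1 and 816.6 CPM against 3207, 3137, 1936 and 1333 CPM (log2 -1.11; edgeR adjusted p = 4.82e-06), lower in each library, though values of the 2 kinds overlapped across libraries.

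In all, 1118 of 10352 genes were higher (10.8%) and 1312 lower (12.7%) in mitochondria-rich proximal tubule-like barcodes, 23.5% called by edgeR in all. Without wild type replicate 2 the counts were 271 and 448, and without Gulo-/- replicate 2 they were 710 and 785. After Slc5a2, the largest rises were in Pgam2 (a phosphoglycerate mutase, 1.54), Tmem259, Apob (apolipoprotein B, 1.44), Mal, Itgb5, Pvrl1, Calb1 (calbindin, 1.30), Emc1, Tmsb4x, Man2b1 and Tbc1d13. The largest falls were in Gstp1 (a glutathione transferase, -1.36), Nutf2, Ube2n, N6amt1, Isoc2a, Cmbl, Sdhaf3 (an assembly factor of complex II, -1.12) and Akr1c21 (-1.11), and in Rps2-ps6, Rpl10-ps3, Rpl6l and Rpl23a-ps3, which share sequence with ribosomal protein genes and are therefore uncertain.

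Of 81 cytosolic ribosomal protein genes, 64 were lower in mitochondria-rich proximal tubule-like barcodes (median log2 change -0.62, against 0.04 over all genes tested), a count of 28 without wild type replicate 2 and 42 without wild type replicate 1. Of 77 nuclear-encoded respiratory chain and ATP synthase genes, 34 were lower and 0 higher in edgeR (median -0.41; 31 and 0 in DESeq2), with 13 without wild type replicate 2 and 18 without wild type replicate 1. Cox5a, a subunit of cytochrome c oxidase, stood at 2146, 1565, 837.7 and 1468 CPM against 2321, 1858, 1542 and 1681 CPM (log2 -0.63; edgeR adjusted p = 0.00969). Summed, the list held 81345 to 116675 CPM in mitochondria-rich and 98757 to 120746 CPM in other proximal tubule-like barcodes, and was lower in all 4 libraries. Of 19 genes of mitochondrial fatty acid oxidation 11 were lower (2 without wild type replicate 2, 4 without wild type replicate 1 and 6 without Gulo-/- replicate 2), Acadm among them at -0.53, and 1 was higher, Cpt1a, the carnitine palmitoyltransferase of the outer membrane, at 0.51. Of 27 antioxidant genes 14 were lower (8 without wild type replicate 2), such as Prdx1 (-0.84) and Sod2 (-0.62), and 1 was higher, Gpx3, the secreted glutathione peroxidase, at 0.76. The summed antioxidant list went the other way, with 58861 to 96587 CPM in mitochondria-rich and 47965 to 52438 CPM in other barcodes and 4 of 4 libraries higher, and Gpx3 alone made up 38400 to 78860 and 22800 to 29450 CPM of it. Of 18 tubular injury genes measured, 6 were higher (Anxa2, Clu, Krt7, Lgals3, S100a6 and Spp1) and 0 lower in edgeR, also at an unadjusted p under 0.05 for the latter, with 0 higher without wild type replicate 2 and 5 of 9 higher in DESeq2, the opposite direction to the list over all barcodes. Their sum was higher in 4 of 4 libraries, at 2501 to 7701 against 1368 to 5019 CPM. Immediate early genes did not move together here: of 22, Egr1, Fos, Ier3 and Socs3 were higher and Jun and Jund lower in edgeR. DESeq2 called 0 of 18 in either direction.

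Markers of other cell types rose inside the same class. In mitochondria-rich proximal tubule-like barcodes 7 of 10 thick ascending limb genes (3 without wild type replicate 2; 2 others were lower), 7 of 10 distal convoluted and connecting tubule genes (0 without wild type replicate 2), 7 of 10 principal cell genes (3 without wild type replicate 2 and 4 without Gulo-/- replicate 2) and 6 of 9 intercalated cell genes (0 without wild type replicate 2 and 3 without Gulo-/- replicate 2) were higher. So were 5 of 6 macrophage and monocyte genes (1 without wild type replicate 2 and 2 without Gulo-/- replicate 2) and 4 of 4 erythroid genes (0 without Gulo-/- replicate 2). DESeq2 called 4 of 7 thick ascending limb genes higher and 2 lower. For the distal, principal, intercalated, macrophage and erythroid lists it called 5 of 8, 4 of 6, 1 of 1, 1 of 3 and 0 of 4 higher. The summed erythroid list was higher in 3 of 4 libraries. Umod stood there at 85.85, 439.9, 241.7 and 1394 CPM against 18.80, 137.7, 106.5 and 858.0 CPM, and Aqp2, the water channel of principal cells, at 34.34, 65.83, 187.6 and 528.7 CPM against 1.928, 32.72, 72.45 and 280.8 CPM. The macrophage list summed to 62.5 to 146 CPM against 17.2 to 63.5 CPM, with 4 of 4 libraries higher, and the podocyte marker Nphs1 was at 0 in the mitochondria-rich proximal tubule-like barcodes. The part that RNA from other cells has in these changes was not tested.

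**Figure D5:**
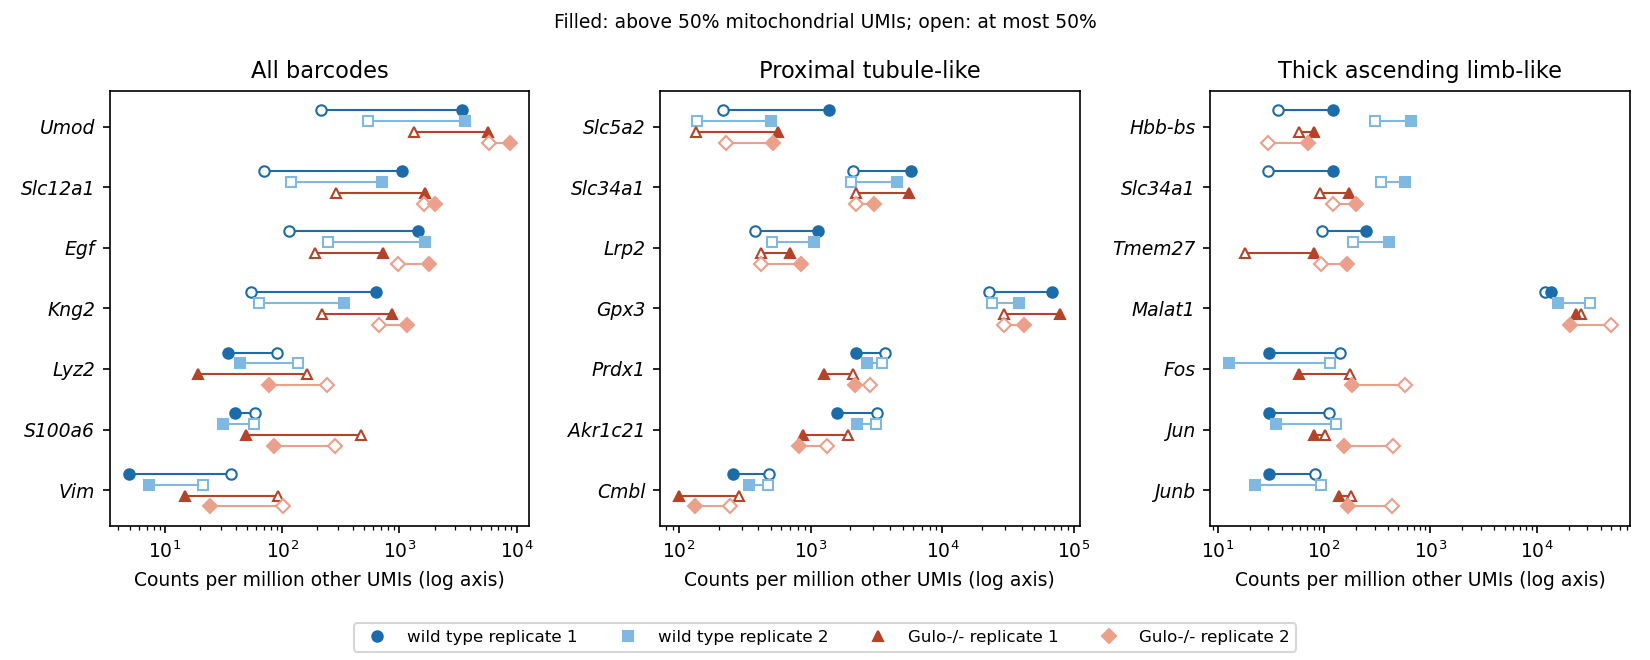
Level in CPM, counts per 1000000 non-mitochondrial UMIs (log axis), of 7 genes each over all barcodes, proximal tubule-like barcodes and thick ascending limb-like barcodes, filled for above 50% and open for at most 50% mitochondrial UMIs, with a line joining the 2 values of a library. Umod runs from 212.9 to 3415 in wild type replicate 1 and from 5849 to 8847 in Gulo-/- replicate 2.

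Thick ascending limb-like barcodes were the other class deep enough for this test. The segment's own markers did not pass there: 0 of 10 were called by edgeR, while 2 had an unadjusted p under 0.05, Umod (log2 0.32; edgeR unadjusted p = 0.00407) and Slc12a1 (log2 0.30; edgeR unadjusted p = 0.00723). Umod stood at 19520, 23320, 22220 and 16440 CPM in mitochondria-rich and 10100, 18990, 19570 and 17480 CPM in other barcodes, so inside the class the 2 kinds overlapped. Of 5068 genes, 73 were higher (1.44%) and 74 lower (1.46%), 2.90% called by edgeR in all. Without wild type replicate 2 the counts were 15 and 17, and without Gulo-/- replicate 2 they were 20 and 5.

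Immediate early genes and nuclear-retained RNAs were the groups that fell in mitochondria-rich thick ascending limb-like barcodes. Of 16 immediate early genes 12 fell (median log2 change -0.99, against -0.01 over all genes tested), with 8 without wild type replicate 2 and 1 without Gulo-/- replicate 2. The thick ascending limb-like clusters differed in how mitochondria-rich they were, as given above, so a different mixture of clusters and different levels within a cluster cannot be told apart here. Fos stood at 30.73, 12.85, 57.78 and 184.7 CPM against 141.0, 115.1, 175.7 and 573.1 CPM (log2 -1.73, SE 0.197; edgeR adjusted p = 2.74e-15), lower in each library. Jun (-1.44), Junb (-1.28), Zfp36 and Klf6 fell as well, as did Sfxn2, Klf9, Ssbp2, Desi2, Hoxc6, Zfp871 and Cebpg outside that list. Malat1, a long noncoding RNA that stays in the nucleus, stood at 13650, 15960, 23560 and 20350 CPM against 11910, 31950, 25960 and 49550 CPM (log2 -0.58; edgeR adjusted p = 8.13e-05). It was lower in 3 libraries and higher in wild type replicate 1. All 4 nuclear long noncoding RNAs measured were called lower, with 1 called without wild type replicate 2 and 0 without Gulo-/- replicate 2. One of the 4 is Xist, which only the female libraries express. Over all barcodes, Malat1 did not differ (log2 -0.07, SE 0.197; edgeR adjusted p = 0.858). In proximal tubule-like barcodes the summed nuclear long noncoding RNAs went the other way. They held 18604 to 49614 CPM in mitochondria-rich and 10675 to 26276 CPM in other barcodes, and were higher in 4 of 4 libraries.

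The genes that rose in this class included markers of other segments and of blood. Rhcg, the ammonia channel of the collecting duct, rose by 1.35, Hbb-bs by 1.22, Pvalb, a marker of the distal convoluted tubule, by 1.14 and Slc34a1 by 0.84, with Emx1, Ptgfr, Tmem27, Adh1, Glyat, Ttr, Gsta2 and Spink1. Tmem27, a protein of the proximal brush border, stood at 245.9, 407.9, 80.89 and 163.6 CPM against 96.44, 185.9, 18.30 and 93.17 CPM (log2 1.07, SE 0.161; edgeR adjusted p = 1.98e-08). Of 14 proximal tubule markers measured 10 rose (0 of 9 without wild type replicate 2 and 4 of 13 without Gulo-/- replicate 2), and 4 of 4 erythroid genes did (0 of 1 without wild type replicate 2). The summed proximal tubule list held 1225 to 11810 CPM in mitochondria-rich and 1153 to 6895 CPM in other thick ascending limb-like barcodes, with 4 of 4 libraries higher. The part of RNA from other cells was not tested here either. Unlike in the proximal tubule, the respiratory chain list rose where it moved: 5 of 77 genes passed, Atp5j2, Cox6a1, Ndufa1, Ndufb7 and Uqcr11, a count of 18 without wild type replicate 1 and of 0 or 1 without each other library, and 0 of 80 ribosomal protein genes passed in edgeR, with 1 at an unadjusted p under 0.05. Whether the 2 classes differ in this was not tested.

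Barcodes above 90%, an alternative chosen after seeing the data, gave few calls. With 11857 genes tested, 13 were higher (0.110%) and 24 lower (0.202%), 0.312% called by edgeR in all, while 1276 had an unadjusted p under 0.05. Lars2 stood at 187.2, 43.27, 1063 and 85.61 CPM against 14.27, 20.67, 37.75 and 17.09 CPM in barcodes at or below 50% (log2 2.81; edgeR adjusted p = 5.98e-15). The gene model AY036118, named after its values were seen, stood at 561.6, 59.49, 1116 and 410.9 CPM against 18.25, 5.963, 64.39 and 36.59 CPM (log2 3.55; edgeR adjusted p = 8.19e-26), and Gm42418, likewise, at 1591, 411.0, 9266 and 1364 CPM against 174.4, 200.5, 762.7 and 271.0 CPM. Both models are commonly known to collect reads of ribosomal RNA. Slc12a3, at 561.6, 156.8, 301.2 and 707.7 CPM against 17.01, 52.84, 185.5 and 484.2 CPM, and Pvalb were the 2 of 11 distal convoluted and connecting tubule markers that passed (edgeR adjusted p = 0.0342 and 0.000293). Of 10 thick ascending limb markers 0 passed in edgeR and 1 had an unadjusted p under 0.05. Umod had a log2 change of 0.28 (unadjusted p = 0.379). The globin genes Hba-a1 (-2.87) and Hbb-bs (-2.24), and Malat1 (-1.34), Lyz2 (-1.53) and Aqp2 (-1.37) were lower.

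The last comparison asked what differed between Gulo-/- and wild type inside the mitochondria-rich barcodes. The proximal tubule-like share was lower in Gulo-/- in both kinds of barcode. Principal cell-like barcodes formed a mean of 0.68% and 0.30% of mitochondria-rich barcodes in wild type and Gulo-/- but 0.42% and 5.41% of other ones. The mitochondria-rich values rest on 2, 5, 1 and 9 barcodes (1.176%, 0.1885%, 0.2053% and 0.3848%), and the genotypes overlapped there. Proximal tubule-like barcodes formed 68.7% ± 14.0 (SD, n = 2) in wild type and 39.7% ± 26.4 (SD, n = 2) in Gulo-/- mitochondria-rich barcodes, without overlap (p = 0.333, exact permutation test), and 83.0% ± 1.45 and 35.8% ± 18.8 (SD, n = 2) in other barcodes (p = 0.333, exact permutation test). The difference of -29.0 percentage points in mitochondria-rich barcodes ran from -47.7 without Gulo-/- replicate 1 to -10.4 without Gulo-/- replicate 2. With the library sum as a candidate profile, chosen after seeing the data, it was -15.5 and the genotypes overlapped (p = 0.667, exact permutation test), as they did above 80%, a limit also chosen then (p = 0.667, exact permutation test). Thick ascending limb-like barcodes overlapped between genotypes in the mitochondria-rich ones (16.1% ± 9.69 against 25.1% ± 9.33, n = 2; p = 0.667, exact permutation test).

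Serpina1a, a gene of the alpha-1 antitrypsin family, and Mdk, the growth factor midkine, had the largest fitted changes in each direction. Among mitochondria-rich barcodes, 22 (replicate 1) and 211 (replicate 2) Mdk UMIs came from wild type and 0 from each Gulo-/- library, at least 84.8-fold lower when set against a floor of 3 UMIs over both Gulo-/- libraries (edgeR adjusted p = 1.54e-05). Serpina1a had 0 and 1 UMIs in wild type and 38 and 161 UMIs in Gulo-/- (ratio of summed levels 182, counting interval 32.7 to 7203; edgeR adjusted p = 8.65e-05), and belongs to a family of near-identical copies, so its count is uncertain. The same directions held in proximal tubule-like barcodes at or below 50%, where Mdk stood at 72.64 and 53.48 CPM in wild type and 1.249 and 1.286 CPM in Gulo-/- (edgeR adjusted p = 0.00495) and Serpina1a at 2.732 and 0.7045 against 196.4 and 242.3 CPM (edgeR adjusted p = 0.0784).

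Of 9466 genes tested, 31 were higher (0.327%) and 107 lower (1.13%) in Gulo-/- mitochondria-rich barcodes, 1.46% called by edgeR in all. These counts turned on single libraries: 186 and 319 without wild type replicate 1, 20 and 71 without wild type replicate 2, 183 and 460 without Gulo-/- replicate 1, and 22 and 31 without Gulo-/- replicate 2. Among the largest falls were Slc22a7 and Slc22a2, organic ion transporters of the proximal tubule, Sectm1b, Mogat1, Hist1h4i, Ccl5, Ccdc151, Aif1 and Adtrp. Slc22a2 stood at 39.25 and 121.2 CPM in wild type and 12.72 and 5.708 CPM in Gulo-/-. Of 20 proximal tubule markers 6 were lower (Cubn, Fbp1, Gatm, Lrp2, Miox and Pck1), beside the smaller share of proximal tubule-like barcodes given above. Among the largest rises were the endothelial genes Cdh5, Ptprb and Sparcl1, with Htr1b, Dcdc2a, Ets1, Ehf and Rgcc. In edgeR 3 of 11 endothelial markers were higher, and in DESeq2 0 of 6. Of 19 genes named in this comparison, in either direction, 3 stayed called in DESeq2. With the mitochondrial limit at 60%, 3 of 17 stayed called in edgeR. Rgcc stood at 34.34 and 12.52 CPM in wild type and 186.5 and 137.8 CPM in Gulo-/- (log2 3.01, SE 0.484; edgeR adjusted p = 0.00509). Of the 77 nuclear-encoded respiratory chain genes 0 passed in edgeR or in DESeq2, with 2 at an unadjusted edgeR p under 0.05.

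Within mitochondria-rich proximal tubule-like barcodes 40 of 4720 genes were higher (0.847%) and 50 lower (1.06%) in Gulo-/-, 1.91% called by edgeR in all. Without wild type replicate 2 the counts were 15 and 22, without Gulo-/- replicate 2 they were 23 and 27, and 96 and 91 were lower without wild type replicate 1 and Gulo-/- replicate 1. The leading proximal tubule cluster of these barcodes was another one in each library, those led by Slc5a2 (49.0%) and Kap (37.7%) in wild type and by Cyp4a14 (44.4%) and Cyp2d26 (64.0%) in Gulo-/-, so cluster and genotype cannot be told apart. In proximal tubule-like barcodes at or below 50%, 7 of 11233 genes were higher (0.0623%) and 13 lower (0.116%), 0.178% called by edgeR in all. Cd74, the invariant chain that goes with MHC class II molecules, stood at 704.0 and 350.7 CPM in wild type and 54.18 and 56.45 CPM in Gulo-/- mitochondria-rich barcodes (log2 -3.31, SE 0.440; edgeR adjusted p = 4.43e-08), and the class II genes H2-Aa (-3.72) and H2-Eb1 (-3.30) fell with it. In the same barcodes C1qb, 1 of the 2 macrophage and monocyte markers measured, was called lower, and the 10 markers summed to 146 and 134.6 CPM in wild type and 62.5 and 73.4 CPM in Gulo-/-, whose part in the Cd74 fall was not tested. Other proximal tubule-like barcodes held 50.78 and 157.2 against 40.29 and 56.96 CPM of Cd74 (log2 -1.22; edgeR adjusted p = 0.332). The difference between these 2 contrasts passed for Cd74, at -2.14 (edgeR adjusted p = 0.00738), as the 1 gene of 10352 (0.00966%).

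Kap, an androgen-dependent transcript of the proximal tubule, stood at 7031 and 27176 CPM in wild type and 1796 and 910.7 CPM in Gulo-/- mitochondria-rich proximal tubule-like barcodes (log2 -3.71; edgeR adjusted p = 0.00585). Its highest value came from the male wild type library and its lowest from the female Gulo-/- one. With the sex of the library as a term, the counts for mitochondria-rich proximal tubule-like barcodes were 10 higher and 20 lower. Aqp2 stood at 34.34 and 65.83 CPM in wild type and 187.6 and 528.7 CPM in Gulo-/- (log2 2.62; edgeR adjusted p = 0.000123). Principal cell-like barcodes formed 0.187% and 0.656% of other barcodes in wild type and 5.30% and 5.51% in Gulo-/-, and their part in the Aqp2 level was not tested. Slc23a1, an ascorbate transporter of the proximal tubule, stood at 8.585 and 38.45 CPM in wild type and 129.2 and 101.6 CPM in Gulo-/- (log2 1.77; edgeR adjusted p = 0.0236) and was the 1 of 6 hydroxylase and ascorbate genes measured that passed in edgeR, while DESeq2 called 0 of 5. In the other proximal tubule-like barcodes Slc23a1 stood at 33.43 and 28.00 against 64.64 and 56.86 CPM (log2 0.81; edgeR adjusted p = 0.229). Serpina1a, Rnase4, Rgcc, Slc9a3r2, Nrep, March10, Sgk1, Egfl7 and Cyp2d22 were the other large rises, and Mdk, Slc22a7, Sectm1b, Wfdc17, Abhd11os and Htatip2 the other large falls.

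The step from other to mitochondria-rich barcodes was itself compared between genotypes. Of 12369 genes it differed for 230 (1.86% called by edgeR), with 26 (0.210%) at a higher and 204 (1.65%) at a lower log2 change in Gulo-/- than in wild type. Umod was among the latter, with a difference of -1.84 on the log2 scale (edgeR adjusted p = 0.00233), as its values given above show: the 2 kinds of barcode lay far apart in wild type and close together in Gulo-/- replicate 2. Without wild type replicate 1 the counts were 11 and 52, without wild type replicate 2 36 and 29, without Gulo-/- replicate 1 123 and 208, and without Gulo-/- replicate 2 9 and 69.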

How the data were processed

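The 4 deposited single-cell matrices hold raw UMI counts of 27998 genes, and the authors' counting steps are not stated in the sources used here. Build mm10 and Seurat 2.3.4 appear in the submitters' processing notes. Barcodes with at least 500 UMIs were used, and no barcode of the files was below that. The authors' deposited table of cluster markers gives p-values and natural log (ln) ratios, which were not used beyond its gene names. The members and lists were chosen with earlier results of these data known.

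Barcodes at or below 50% were clustered without mt- genes (scanpy 1.11.5; 2000 variable genes, 30 components, 15 neighbours, leidenalg 0.10.2, resolution 1), after removing the highest Scrublet scores (20, 455, 28 and 1559 barcodes), since its automatic threshold called 0 in both wild type libraries. Doublets were not removed among mitochondria-rich barcodes. The 32 clusters were named from marker lists, and ambiguous ones stayed unnamed.

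UMIs were summed per library and kind of barcode and tested with edgeR 4.0.16 (TMM, filterByExpr, quasi-likelihood F test, Benjamini-Hochberg adjustment, calls at an adjusted p under 0.05). The contrast of the 2 kinds used 8 sums with the library as a block, and the genotype contrast 4 sums without a block. On simulated counts the first design recovered 49.0% of 2-fold and 95.0% of 4-fold changes over 12244 genes, and the second 17.0% and 85.9% over 6338. Named genes were the 12 (genotype: 10) called genes per direction with the largest change, with the same sign in all 4 libraries and a mean of at least 20 CPM (genotype: no overlap between genotypes); list members could be named besides, and gene models without a name were otherwise only counted. Alternatives were DESeq2 1.42.0, other limits, filters and resolutions, the sex of the library, a replicate block and leaving out each library. Some genes that the rule names are not reported here.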

Additional observations from a re-analysis of the deposited data

Results flagged for a closer look

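The change from other to mitochondria-rich barcodes differed between genotypes, by an interaction term in edgeR, for 230 genes over all barcodes. Among the genes named for a rise it was smaller in Gulo-/- than in wild type for Umod (-1.84 on the log2 scale), Slc12a1 (-1.63), Egf (-1.63), Gpx6 (-1.5), Kng2 (-1.39), Ppp1r1a (-1.38), Wfdc15b (-1.33) and Abca13 (-1.22). For S100a6, named for a fall, the difference was -1.28, so the fall was larger in Gulo-/-. Thick ascending limb-like barcodes formed 28.5% of other barcodes in Gulo-/- replicate 2 and 3.03% to 6.95% in the other three libraries, and the part of this make-up in the differences was not tested.

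Within proximal tubule-like barcodes the change differed between genotypes for 1 gene, Cd74 (-2.14).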

How the results depend on the processing

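Leaving out 1 library left 80 of 120 values the same, and the other alternatives left 87 of 123. For counts of called genes, the same means within a fixed fold range of the main count. For differences between genotypes in shares and make-up it means an unchanged sign. For other values it means an unchanged sign and a shift smaller than the SD between libraries. The cause of the changes was not tested.

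The genotype difference in the share of mitochondria-rich barcodes (-0.2191 percentage points) was 0.06825 at a limit of 40% and 0.3357 with the shared barcodes kept, and ran from -9.425 to 8.986 when 1 library was left out (3.121 without wild type replicate 2). The excess of distal convoluted and connecting tubule-like barcodes was 12.44 percentage points with clusters at resolution 2, against 6.365. Leaving out 1 library gave -10.03 to 0.7534 for the proximal tubule-like excess. The genotype difference in the mitochondria-rich share ran from -6.069 to 11.44 for proximal tubule-like barcodes (-2.289 without Gulo-/- replicate 1) and from -2.325 to 0.8934 for endothelial-like ones (0.07019 without Gulo-/- replicate 2). The difference in genes at 250 UMIs ran from -1.667 to 1 (0.3333 without wild type replicate 1).

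For all mitochondria-rich against other barcodes, genes called higher and lower numbered 416 and 356 with DESeq2, 477 and 515 at a limit of 60%, 88 and 106 above 80% and 13 and 24 above 90%. Without the library block edgeR called 0 and 0, with 817 genes at an unadjusted p under 0.05. Leaving out 1 library gave 247 to 749 higher and 286 to 991 lower. In proximal tubule-like barcodes DESeq2 called 568 and 795, no filter on low counts gave 680 higher, and edgeR without the library block called 0 and 0 (1757 unadjusted). Leaving out 1 library gave 271 to 1087 and 448 to 1133 there, 15 to 100 and 5 to 72 in thick ascending limb-like barcodes, and 9 to 123 and 29 to 208 for the genotype difference of the contrast.

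Between genotypes, DESeq2 called 11 higher in all and 4 higher and 15 lower in proximal tubule-like mitochondria-rich barcodes. No filter gave 114 and 293 in all and 83 lower in proximal tubule-like ones. A limit of 60% left 1 and 7, and 2 and 3. With the sex of the library as a term the counts were 12 and 65, and 10 and 20. Leaving out 1 library gave 20 to 186 and 31 to 460, and 15 to 51 and 22 to 96. With the replicate number as a block they were 95 and 217, and 13 and 19. Deviations of same-numbered libraries correlated at -0.0818 over 6339 genes. This value cannot decide whether they are paired, since same-numbered libraries were of opposite sex. The numbers were not taken to pair samples because the labels do not say that they do.

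Alternatives that limit the mitochondrial share to 50 to 80%, above 80% or above 90% were chosen after seeing the data. Depth limits what can be read: 312, 572, 546 and 517 mitochondria-rich barcodes had under 200 non-mitochondrial UMIs and no class, and wild type replicate 1 gave 203832 such UMIs in all.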
